A study of Mus musculus with 20 samples.

Results

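A set of 9 genes of iron storage, iron transport, haem breakdown and metal binding, listed by name, were read from the hippocampal count table of Tg-SwDI and control mice. They were Fth1, Ftl1, Tfrc, Slc40a1, Cp, Hmox1, Mt1, Mt2 and Mt3, that is, 9 of 39056 genes in the table, and all 9 were among the 16107 genes that passed the filter on low counts. They were chosen by name for their bearing on small bleeds, which accompany amyloid in vessel walls, and the rule uses no measured value. Earlier results of these data were known when they were chosen. The 20 mice were females of 12 to 13 months, 5 per group, and each gave 1 stranded mRNA library from its left hippocampus. The groups were miR-34a wild-type mice without the transgene (WT Non-Tg), miR-34a knockout mice without it (KO Non-Tg), and Tg-SwDI mice of either miR-34a genotype (WT Tg-SwDI and KO Tg-SwDI). All were on a C57BL/6 background and were perfused with PBS before the brain was taken. The transgene is human APP with the Swedish, Dutch and Iowa mutations under the Thy1 promoter, which is active in neurons, and the miR-34a deletion is constitutive and present in every cell of the body. Deposited counts summed to between 19549622 and 21066868 per mouse.

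Ferritin, a shell of heavy (Fth1) and light (Ftl1) chains, holds iron inside cells, transferrin receptor 1 (Tfrc) brings it in, and ferroportin (Slc40a1) lets it out with the help of the ferroxidase ceruloplasmin (Cp). When cellular iron is low, iron regulatory proteins bind a hairpin, the iron-responsive element, which blocks translation of ferritin and ferroportin mRNA and protects Tfrc mRNA from decay, so ferritin protein can change with no change in its mRNA. Haem oxygenase 1 (Hmox1) opens the haem ring and frees its iron, and metallothioneins are small cysteine-rich proteins that bind zinc and copper, with Mt1 and Mt2 made mainly in astrocytes and inducible by metals, glucocorticoids and cytokines, and Mt3 known as the brain form.

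In Tg-SwDI mice, the gene for haem breakdown and the inducible metallothionein Mt2 were higher in both miR-34a genotypes, ferritin and Mt1 were higher in KO mice and on the average over genotypes, and the genes for iron uptake and export did not pass the test. Of the 9 genes, 5 passed the test on the average of both genotypes (Fth1, Ftl1, Hmox1, Mt1 and Mt2), all of them higher, where 17.2% of all genes tested passed, 11.3% as higher and 5.82% as lower. In KO mice 6 passed (the same 5 and Mt3), all higher, against 20.8% of all genes, 12.5% higher and 8.31% lower. In WT mice 2 passed (Hmox1 and Mt2), both higher, against 4.41% of all genes, 3.94% higher and 0.466% lower. The median log2 fold change of the 9 genes was 0.34 on the average, 0.49 in KO and 0.12 in WT mice, beside -0.01, -0.00 and 0.00 for all genes tested. The test was edgeR's quasi-likelihood test over all genes, passed where the adjusted p by Benjamini and Hochberg (FDR) was under 0.05, and levels are CPM, the counts of a gene relative to the library total after TMM scaling. In bulk tissue, more cells of a type and more RNA per cell cannot be told apart.

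**Figure D1:**
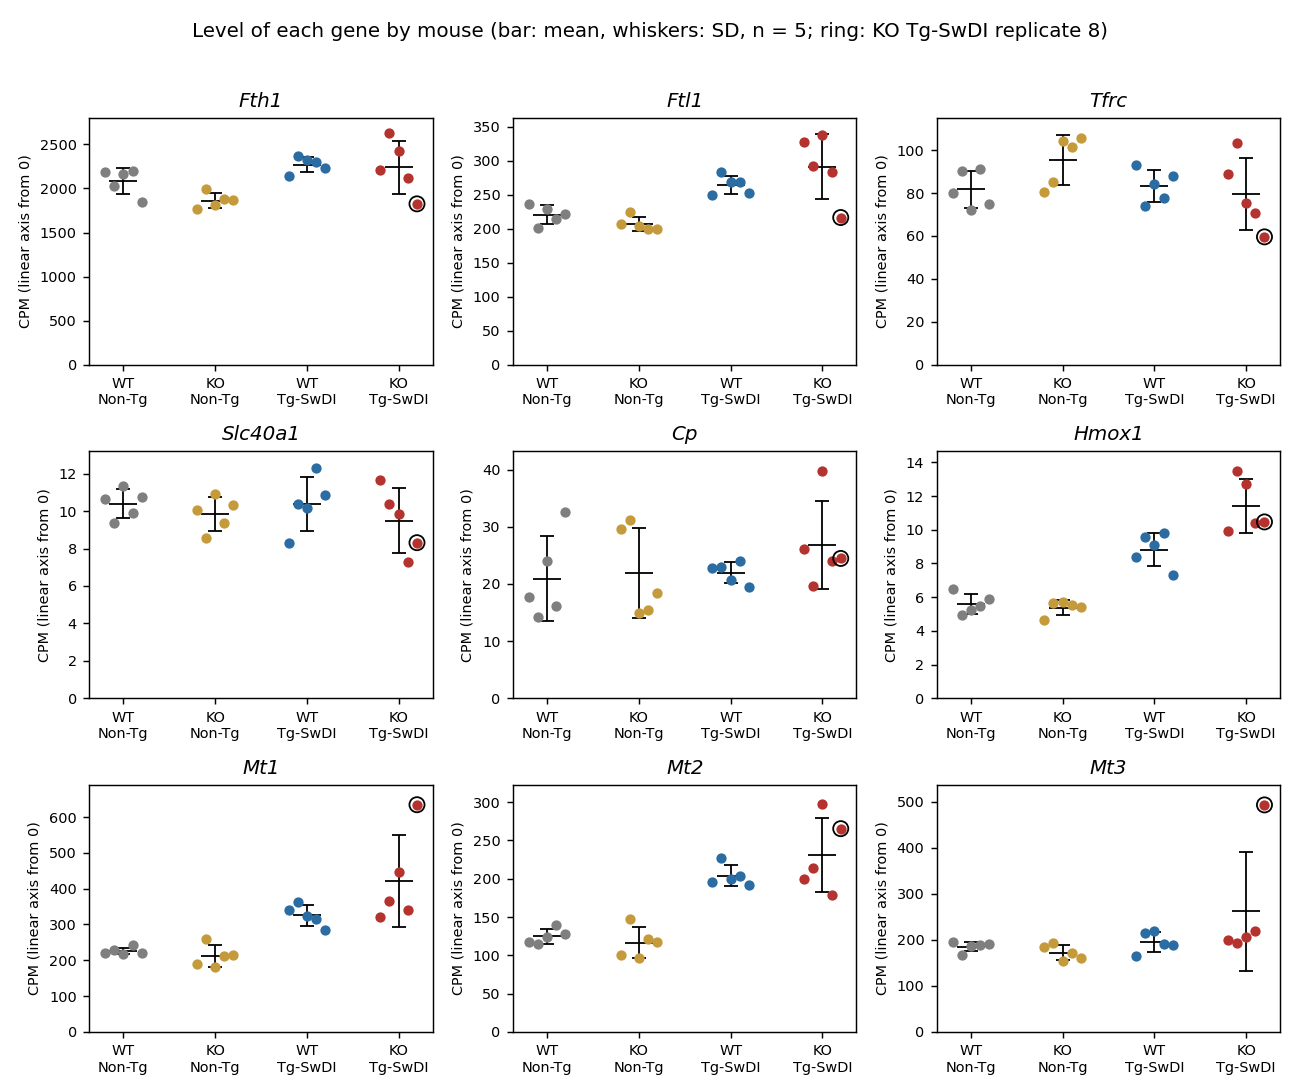
Level of each of the 9 genes (CPM, linear axis from 0) in every mouse of the 4 groups, with the group mean (bar), SD (whiskers, n = 5) and a ring around KO Tg-SwDI replicate 8. Every Tg-SwDI mouse lies above every Non-Tg mouse for Hmox1, Mt1 and Mt2, and the ringed mouse lies far above the others for Mt3.

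The labels and libraries were checked first. Non-Tg mice had 685 to 769 CPM of Thy1, the gene that lent the transgene its promoter, and Tg-SwDI mice had 1905 to 3318 CPM. Among Tg-SwDI mice the KO level was 1.30-fold that of WT mice (FDR = 0.00416, edgeR), and its part in the differences between those groups was not tested. Xist lay between 326 and 666 CPM in the 20 mice, all of them labelled female. Mir34a has no row in the table, so the knockout could not be checked on its own transcript.

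A single library stood apart from the rest. KO Tg-SwDI replicate 8 had 14.6% of its counts in mitochondrial genes, where the other 19 mice had 6.94% to 8.76%. It had the lowest Tfrc of all 20 mice, the lowest Fth1 and Ftl1 of its group, and the highest Mt1 and Mt3 of all 20 mice. Calls on the 9 genes that changed without that mouse are therefore given both ways. Choroid plexus genes also varied between mice. Ttr, the most abundant gene of the choroid plexus list, was over 1000 CPM in 8 Tg-SwDI mice (4 WT, 4 KO) and 3 Non-Tg mice (3 WT, 0 KO), with 277 CPM as the highest value below that line and 1691 CPM as the lowest above it.

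Levels of the 9 genes were compared with each other per kilobase of exon, since CPM rises with length. The length was that of all annotated exons of a gene merged, not of the transcripts expressed, so the order depends on the annotation. Mt1, for one, had 1246 bases and a mean of 296 CPM, and Mt2 had 588 bases and 169 CPM. Fth1 was the most abundant at a mean of 609.99 CPM per kb over the 20 mice (508 to 757), and its lowest mouse was below the highest mouse for Mt1 (509.6). It was followed by Mt2 (288), Mt1 (238), Mt3 (191) and Ftl1 (183), whose ranges over mice overlapped one another. Tfrc followed at 13.7 CPM per kb, then Hmox1 at 4.45, Cp at 2.39 and Slc40a1 at 1.12. Ranges over mice overlapped for Hmox1 (2.65 to 7.72) and Cp (1.48 to 4.16) and not for Cp and Slc40a1 (0.809 to 1.37). Slc40a1 and Hmox1 rest on few reads, 142 to 255 and 97 to 263 counts per mouse, whereas Fth1 had 33153 to 50350.

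The ferritin chains, which store iron, are shown first with the element that ties their translation to iron. Fth1 lies at chr19:9980598-9985098 on the plus strand and Ftl1 at chr7:45457944-45459884 on the minus strand of GRCm38 (mm10, GENCODE M21). A search of all 5' and 3' UTRs of the 9 genes for an unpaired C, 5 stem bases, the loop CAGTGN and 5 bases that pair with the stem found 1 match in the 5' UTR of each ferritin gene and of Slc40a1, 4 in the 3' UTR of Tfrc and 0 in Cp, Hmox1, Mt1, Mt2 and Mt3. Both ferritin matches are in exon 1, at chr19:9982732-9982761 and chr7:45459778-45459807, and the loop is in capitals:
Fth1: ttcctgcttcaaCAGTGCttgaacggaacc
Ftl1: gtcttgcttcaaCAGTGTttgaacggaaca
The match places the element and says nothing of its use in these mice, since translation was not measured.

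Fth1, the heavy chain with the ferroxidase site, read 2186, 2032, 2167, 2203 and 1850.4 CPM in WT Non-Tg mice and 1762, 1994, 1809, 1877 and 1874 CPM in KO Non-Tg mice. It read 2138, 2367, 2322, 2299 and 2235 CPM in WT Tg-SwDI mice and 2208, 2627, 2421, 2124 and 1825 CPM in KO Tg-SwDI mice, the last value being replicate 8. The groups overlapped in every comparison, and KO Non-Tg mice had the lowest mean. Fth1 was 1.20-fold higher in Tg-SwDI than in Non-Tg KO mice (log2 0.27, SE 0.07, FDR = 0.00908, edgeR) and 1.26-fold without replicate 8 (log2 0.33, FDR = 0.000208). In WT mice the difference of 1.09-fold did not pass (log2 0.12, SE 0.07, FDR = 0.447).

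Ftl1, the light chain that aids mineral formation, read 236, 201, 229.6, 215 and 222 CPM in WT Non-Tg mice and 207, 225, 204, 199.7 and 200.2 CPM in KO Non-Tg mice. It read 249.6, 283, 268, 268 and 253 CPM in WT Tg-SwDI mice and 327, 292, 337, 283 and 216 CPM in KO Tg-SwDI mice. All WT Tg-SwDI mice lay above all WT Non-Tg mice, as was so, in either direction, for 6.69% of all genes, and in KO mice only replicate 8 kept the groups from separating. Ftl1 was 1.41-fold higher in Tg-SwDI than in Non-Tg KO mice (log2 0.49, SE 0.08, FDR = 8.27e-05, edgeR) and by 0.58 on the log2 scale without replicate 8 (SE 0.06, FDR = 1.25e-08). In WT mice Ftl1 was 1.20-fold higher (log2 0.26, SE 0.08) and missed the threshold with all mice (FDR = 0.0713), and it passed without KO Tg-SwDI replicate 3 (FDR = 0.0435) and without replicate 8 (FDR = 0.00216), neither of which is a WT mouse.

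The ratio of Fth1 to Ftl1 counts within a mouse does not depend on the scaling of libraries, and it was looked at after the values were seen. In WT mice it averaged 9.48 ± 0.762 without and 8.60 ± 0.175 with the transgene, and in KO mice 9.01 ± 0.373 without and 7.77 ± 0.919 with it (SD, n = 5). The Tg-SwDI ratio was lower than the Non-Tg ratio by a factor of 0.859 in KO and of 0.910 in WT mice. Neither difference passed after adjustment over the 4 comparisons (exact two-sided permutation test, p = 0.0476 and adjusted p = 0.0952 for each, with 0.00794 as the smallest p that 5 against 5 mice allow).

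Tfrc, the uptake receptor, lies at chr16:32608920-32632794 on the plus strand, and its 4 matches to the element are all in exon 19. They are printed because this 3' UTR cluster, unlike the single 5' element of ferritin, acts on the stability of the mRNA that was counted:
Tfrc, chr16:32631219-32631248: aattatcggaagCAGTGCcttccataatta
Tfrc, chr16:32631598-32631627: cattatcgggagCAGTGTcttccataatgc
Tfrc, chr16:32631663-32631692: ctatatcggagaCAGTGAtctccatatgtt
Tfrc, chr16:32631710-32631739: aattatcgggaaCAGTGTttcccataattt
Tfrc averaged 81.7 ± 8.67 CPM without and 83.4 ± 7.57 CPM with the transgene in WT mice, and 95.4 ± 11.9 CPM without and 79.5 ± 17.0 CPM with it in KO mice (SD, n = 5). Its log2 difference of Tg-SwDI from Non-Tg was -0.26 (SE 0.12, FDR = 0.137, edgeR) in KO mice and 0.03 (SE 0.12, FDR = 0.945) in WT mice, and neither passed. Without replicate 8, the lowest mouse at 59.6 CPM, the difference in KO mice was -0.17 (FDR = 0.322), and without KO Tg-SwDI replicate 2, the highest of its group, it was -0.36 and passed (FDR = 0.0196). With the choroid plexus score of each mouse in the model, the average over genotypes turned from -0.12 to 0.02, neither of which passed.

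Slc40a1, the only known iron exporter of mammalian cells, lies at chr1:45908068-45926523 on the minus strand. Its 5' UTR element is printed beside those of ferritin because it has the same place in the transcript:
Slc40a1, chr1:45925464-45925493: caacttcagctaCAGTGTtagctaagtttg
Slc40a1 averaged 10.4 ± 0.777 CPM without and 10.4 ± 1.44 CPM with the transgene in WT mice, and 9.85 ± 0.902 CPM without and 9.50 ± 1.72 CPM with it in KO mice (SD, n = 5). All groups overlapped, and the average log2 difference of Tg-SwDI from Non-Tg was -0.03 (SE 0.08, FDR = 0.865, edgeR).

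Cp, a copper enzyme that oxidizes the exported iron, lies at chr3:19957054-20009145 on the plus strand. In WT mice it averaged 20.9 ± 7.45 CPM without and 21.9 ± 1.87 CPM with the transgene, and in KO mice 21.9 ± 7.87 CPM without and 26.8 ± 7.65 CPM with it (SD, n = 5), with single mice from 14.1 to 39.8 CPM. Its SD, 35.7% of the mean in WT and 35.9% in KO Non-Tg mice, was the widest of the 9 genes in both Non-Tg groups. The average difference was 0.18 (log2, SE 0.18, FDR = 0.553, edgeR) and became -0.06 with the choroid plexus score in the model.

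Hmox1, the inducible haem oxygenase, lies at chr8:75093621-75100589 on the plus strand and passed for Tg-SwDI against Non-Tg in both genotypes. It read 6.48, 4.91, 5.21, 5.45 and 5.87 CPM in WT Non-Tg mice and 4.64, 5.64, 5.69, 5.52 and 5.42 CPM in KO Non-Tg mice. It read 8.36, 9.56, 9.08, 9.81 and 7.32 CPM in WT Tg-SwDI mice and 9.94, 13.5, 12.7, 10.4 and 10.5 CPM in KO Tg-SwDI mice. No Tg-SwDI mouse overlapped with a Non-Tg mouse, which held, in either direction, for 3.10% of all genes tested over both genotypes and for 12.8% in KO mice alone. All KO Tg-SwDI mice also lay above all WT Tg-SwDI mice, the closest at 9.94 and 9.81 CPM, and 3.16% of all genes separated these groups. Hmox1 was 2.12-fold higher in Tg-SwDI than in Non-Tg KO mice (log2 1.08, SE 0.11, FDR = 1.69e-08, edgeR) and 1.58-fold higher in WT mice (log2 0.66, SE 0.11, FDR = 0.000124). Without replicate 8 the difference in KO mice was 2.16-fold (FDR = 1.98e-08).

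The metallothioneins form a cluster on the plus strand of chromosome 8, Mt3 at chr8:94152607-94154146, Mt2 at chr8:94172664-94173568 and Mt1 at chr8:94179082-94180327. The promoters of Mt1 and Mt2 are shown because the genes moved together (RefSeq, GRCm38.p6, 250 bases before to 50 after the start, plus strand). TGCNCNC is a loose form of the core of the metal response element bound by MTF1, which takes only A or G at the first N. Capitals mark matches to TGCNCNC on either strand, and no match overlaps another:
Mt1, chr8:94178839-94179138: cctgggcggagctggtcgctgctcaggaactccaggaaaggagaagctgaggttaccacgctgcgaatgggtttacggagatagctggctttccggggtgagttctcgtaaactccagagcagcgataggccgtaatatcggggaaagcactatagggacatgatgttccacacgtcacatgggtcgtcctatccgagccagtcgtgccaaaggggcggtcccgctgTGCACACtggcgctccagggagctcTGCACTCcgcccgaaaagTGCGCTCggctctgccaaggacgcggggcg
Mt2, chr8:94172368-94172667: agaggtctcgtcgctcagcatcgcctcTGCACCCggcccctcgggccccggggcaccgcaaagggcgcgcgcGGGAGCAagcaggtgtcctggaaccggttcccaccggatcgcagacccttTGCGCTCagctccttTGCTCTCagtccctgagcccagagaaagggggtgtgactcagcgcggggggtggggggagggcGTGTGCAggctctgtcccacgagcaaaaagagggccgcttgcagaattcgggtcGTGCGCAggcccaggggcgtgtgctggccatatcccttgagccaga
The Mt1 window held 3 matches, the Mt2 window 6 and the Mt3 window 3. Among the Mt2 matches, TGCTCTC and GGGAGCA (read on the minus strand) have T at the first N. Among the other members searched, windows of Tfrc held 3 and 1, those of Cp 2 and 0, and those of Fth1 and Ftl1 0. Of 32851 promoter windows of that length, 51% held at least 1 match, 7.1% at least 3 and 0.225% at least 6. The core of the antioxidant response element, TGACNNNGC on either strand, was found 1 time in the Mt2 window and 0 times in those of Mt1 and Mt3, where 12.4% of all windows held it. A match in these letters is not a bound site.

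Mt1 read 221, 228, 218, 242 and 221 CPM in WT Non-Tg mice and 190.2, 260.1, 182, 213 and 215 CPM in KO Non-Tg mice. It read 341, 364, 324, 314 and 285 CPM in WT Tg-SwDI mice and 320.4, 366, 446, 340.4 and 635 CPM in KO Tg-SwDI mice, the last value being replicate 8. All 10 Tg-SwDI mice lay above all 10 Non-Tg mice. Mt1 was 1.99-fold higher in Tg-SwDI than in Non-Tg KO mice (log2 0.99, SE 0.15, FDR = 0.000101, edgeR) and 1.74-fold without replicate 8 (log2 0.80, SE 0.10, FDR = 8.53e-06). In WT mice it was 1.44-fold higher (log2 0.53, SE 0.15) and missed the threshold with all mice (FDR = 0.0526), and it passed in 4 of 20 fits that each left out 1 mouse: KO Non-Tg replicate 2 (FDR = 0.0433) or KO Tg-SwDI replicate 1 (0.0344), 5 (0.0463) or 8 (0.00121). Over all 32 alternatives it passed in 12 and missed the threshold in 20. Those that passed included DESeq2 (FDR = 0.0291), edgeR's exactTest (0.0107) and a mean CPM of at least 1 as the filter (0.0486).

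Mt2 read 118, 115, 124, 139 and 128 CPM in WT Non-Tg mice and 101, 147, 96.2, 121 and 117 CPM in KO Non-Tg mice. It read 196, 228, 199.7, 204 and 192 CPM in WT Tg-SwDI mice and 200.2, 214, 297, 179 and 265 CPM in KO Tg-SwDI mice. Again all 10 Tg-SwDI mice lay above all 10 Non-Tg mice, and replicate 8 was within the range of its group. Mt2 was 1.99-fold higher in KO mice (log2 0.99, SE 0.13, FDR = 9.62e-06, edgeR; log2 0.94 without replicate 8, FDR = 8.26e-05) and 1.63-fold higher in WT mice (log2 0.71, SE 0.12, FDR = 0.000982).

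Mt3, the brain form, had a difference whose size rested on a single mouse. It read 195, 167, 186, 188 and 190.4 CPM in WT Non-Tg mice and 183, 193, 153, 171 and 161 CPM in KO Non-Tg mice. It read 165, 214, 219, 191 and 188 CPM in WT Tg-SwDI mice and 199.7, 193, 206, 219.8 and 493 CPM in KO Tg-SwDI mice, with replicate 8 above every other mouse. In KO mice the Tg-SwDI group lay just above the other, each having a mouse at 193 CPM. The difference in KO mice was 1.52-fold (log2 0.61, SE 0.21, FDR = 0.0483, edgeR) with all mice and 1.19-fold without replicate 8 (log2 0.25, SE 0.08, FDR = 0.0249), so the value fell and its error fell with it. In WT mice the log2 difference was 0.08 (SE 0.21, FDR = 0.920). On the average of both genotypes Mt3 missed the threshold with all mice (log2 0.34, FDR = 0.127) and passed without replicate 8 (log2 0.16, FDR = 0.0328), as the sixth of the 9 genes. The difference in KO mice passed in 5 of 20 fits that each left out 1 mouse, with FDR from 0.0249 to 0.104 and log2 values from 0.25 to 0.72.

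**Figure D2:**
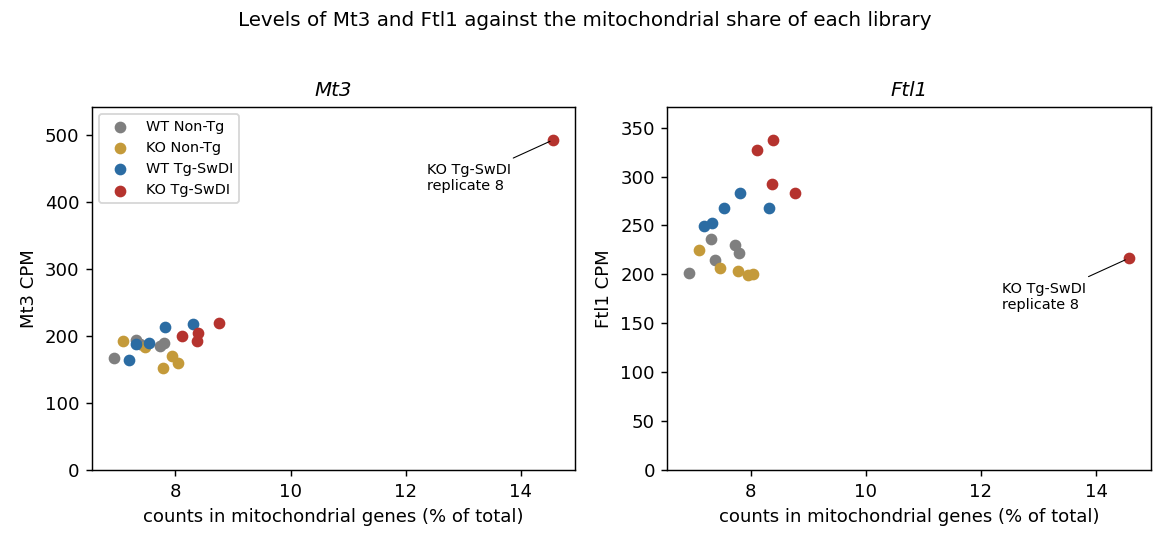
Level (CPM) of Mt3, left, and Ftl1, right, against the percent of each library's counts that fell in mitochondrial genes, with 1 point per mouse coloured by group. KO Tg-SwDI replicate 8 stands alone at 14.6%, with Mt3 at 493 CPM and Ftl1 at 216 CPM.

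Copies of these genes took few reads. The ferritin pseudogene Ftl1-ps1 had 5 to 20 counts per mouse and Fth-ps2 had 2 to 12, beside at least 3930 for Ftl1, and Mt4, the metallothionein of stratified epithelia, had at most 1 count in a mouse. How reads that match several copies were counted is not given in the sources used here, so ferritin reads lost to copies cannot be bounded from the table.

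The question of whether miR-34a alters these genes in amyloid-bearing mice was addressed by comparing KO with WT Tg-SwDI mice. None of the 9 genes passed, where 1.99% of all genes did, and 2 of the 9 had an unadjusted p under 0.05 (Hmox1 and Mt1), where 18.9% of all genes did. The nearest was Hmox1, 1.29-fold higher in KO mice (log2 0.37, SE 0.10, FDR = 0.0554, edgeR), which passed without KO Tg-SwDI replicate 8 (FDR = 0.0490), without KO Tg-SwDI replicate 1 (FDR = 0.0352) and without WT Non-Tg replicate 2 (FDR = 0.0485). It also passed with DESeq2 (FDR = 0.0228), with edgeR's exactTest (FDR = 0.0499), with the choroid plexus score in the model (FDR = 0.0409) and with a mean CPM of at least 1 as the filter (FDR = 0.0458). It passed in 8 of 32 alternatives and missed the threshold in the other 24, among them the 10 compared mice alone (FDR = 0.146), library size alone as the scaling (0.104), the replicate block (0.245) and the homeostatic microglia score (log2 0.16, FDR = 0.506). In the same comparison Thy1 was 1.30-fold, Trem2 1.39-fold (FDR = 0.00416) and Gfap 1.42-fold (FDR = 0.0412, and 0.0778 without replicate 8) higher in KO mice, and their part in the Hmox1 difference was not tested. Ftl1 differed by 0.14 (log2, SE 0.08, FDR = 0.353) with all mice and by 0.23 (SE 0.06, FDR = 0.0286) without replicate 8. The other 7 genes ranged from -0.13 for Slc40a1 to 0.42 for Mt3 on the log2 scale, and Mt3 was at 0.07 without replicate 8. Mt1 was at 0.37 (SE 0.15, FDR = 0.184) with all mice and at 0.18 (SE 0.10, FDR = 0.395) without replicate 8, where its unadjusted p was 0.0905.

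In Non-Tg mice 0 of the 9 genes passed between KO and WT, as did 0 of all 16107 genes tested by edgeR's quasi-likelihood test, and DESeq2 and edgeR's exactTest also called 0 of the 9, and 7 and 4 of all genes. One of the 9, Fth1, had an unadjusted p under 0.05, where 8.08% of all genes did. The log2 differences ran from -0.16 for Fth1 (SE 0.07, FDR = 0.579) to 0.22 for Tfrc (SE 0.12, FDR = 0.683).

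The interaction asks whether the Tg-SwDI difference was larger in KO than in WT mice. With all mice none of the 9 genes passed, where 0.608% of all genes did. Hmox1 (log2 0.42, SE 0.15, FDR = 0.151, edgeR) and Mt1 (log2 0.46, SE 0.21, FDR = 0.263) had an unadjusted p under 0.05, as 17.5% of all genes did. Without KO Tg-SwDI replicate 8 Mt1 was at 0.27 (FDR = 0.327), with an unadjusted p over 0.05, and Hmox1 was at 0.46 (FDR = 0.125). Ftl1 was at 0.23 (SE 0.11, FDR = 0.291) and passed only in the fit without KO Tg-SwDI replicate 8, at 0.33 (SE 0.08, FDR = 0.0350). The larger number of genes that passed in KO mice is therefore not shown to be a difference between genotypes.

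**Figure D3:**
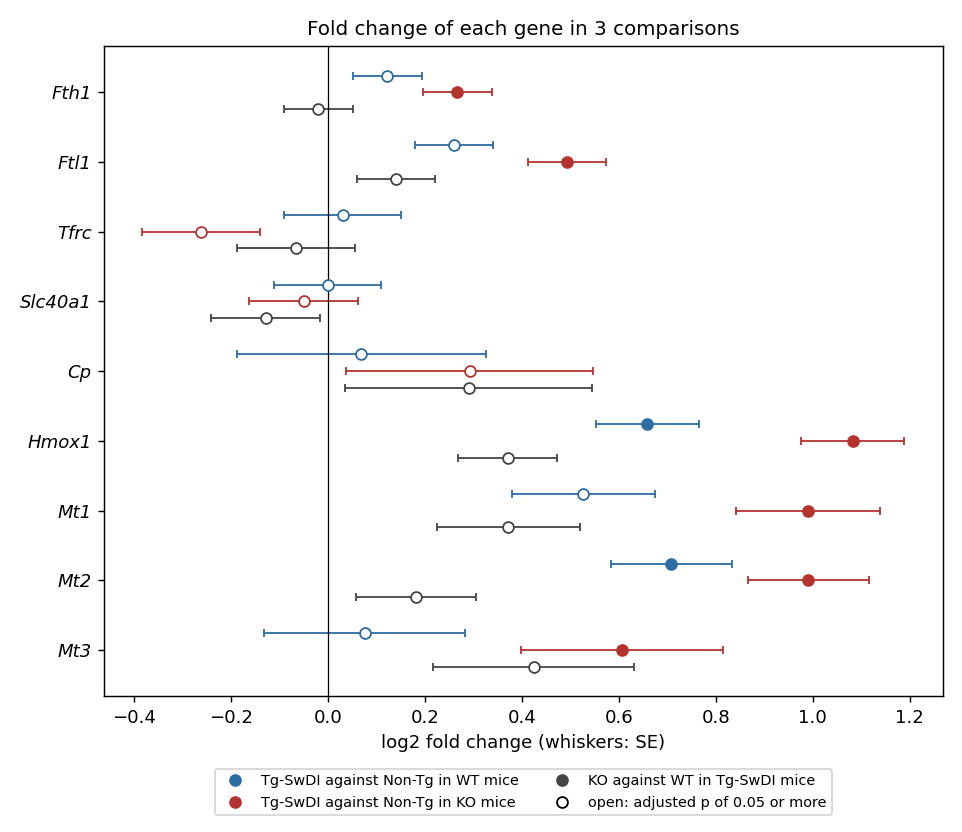
Log2 fold change (points) and SE (whiskers) of the 9 genes for Tg-SwDI against Non-Tg in WT and in KO mice and for KO against WT in Tg-SwDI mice, with filled points where the adjusted p was under 0.05. Hmox1, at 0.66 and 1.08, and Mt2, at 0.71 and 0.99, are filled in both WT and KO mice, and no gene is filled for KO against WT.

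Genes around the 9 were read from 12 lists of 140 different genes, of which 129 were tested. The lists were chosen with earlier results of these data known, so their counts beside those of all genes are descriptive and not an independent test. On the average of both genotypes 29 of the 129 were higher in Tg-SwDI mice and 1 was lower, beside 11.3% and 5.82% of all genes. Without KO Tg-SwDI replicate 8 there were 32 and 3, beside 1952 and 1192 of 16224 genes. In KO mice 30 were higher and 6 lower, that is, 36 of 129, beside 20.8% of all genes, 12.5% higher and 8.31% lower. In WT mice 14 were higher and 0 lower, beside 4.41% of all genes, 3.94% higher and 0.466% lower. Without KO Tg-SwDI replicate 8 there were 27 higher and 5 lower in KO and 17 higher and 0 lower in WT mice. Among all 16224 genes of that fit, 1904 were higher and 1156 lower in KO mice, and 767 higher and 190 lower in WT mice. With all mice 635 of 16107 genes were higher in WT mice, so the count over all genes rose there too. The median log2 fold change of the 129 was 0.11 in KO and 0.04 in WT mice, beside -0.00 and 0.00 for all genes tested. Ttr was over 1000 CPM in 0 KO Non-Tg and 4 KO Tg-SwDI mice, so choroid plexus content was uneven in the KO comparison. With the choroid plexus score in the model, 1196 of 16107 genes passed there, where 3351 did without it. For WT mice the numbers were 690 with the score and 710 without it. List counts with that score are not given here, and the part of choroid plexus in the list counts was not tested.

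Of 13 genes of iron uptake and reduction, 6 were higher in KO and 2 in WT mice, and 0 were lower, beside 12.5% and 3.94% of all genes higher. Without KO Tg-SwDI replicate 8 there were 5 higher in KO and 3 in WT mice. Cybrd1, a ferric reductase, rose from 4.25 ± 0.346 to 12.9 ± 2.35 CPM in KO mice (SD, n = 5, log2 1.60, FDR = 1.17e-09, edgeR) and from 4.52 ± 0.969 to 9.84 ± 1.31 CPM in WT mice (log2 1.12, FDR = 1.64e-06). Tf, the iron carrier transferrin, which oligodendrocytes and choroid plexus make in the brain, rose 1.83-fold in KO mice (FDR = 6.67e-06), while its 1.25-fold difference in WT mice did not pass (FDR = 0.135). Lcn2, a siderophore-binding protein of inflamed tissue, rose by 2.43 on the log2 scale in KO mice (FDR = 0.000401) and by 2.16 in WT mice (FDR = 0.00506). Hfe, which takes part in hepcidin control, was the 1 of 4 tested genes of iron export and hepcidin control that passed, 2.07-fold higher in KO mice (FDR = 0.000511). That count is near the 20.8% of all genes that passed in KO mice.

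Of 6 tested genes of the iron regulatory proteins and ferritin turnover, 1 passed in KO mice, which does not exceed the 20.8% of all genes, and 0 passed in WT mice. It was Ireb2, which encodes iron regulatory protein 2, and it was lower in Tg-SwDI KO mice (log2 -0.24, SE 0.07, FDR = 0.0122, edgeR). In WT mice its difference was 0.15 (FDR = 0.280), and the interaction was -0.39 (SE 0.10, FDR = 0.0522). Of 13 genes of mitochondrial iron and iron-sulfur clusters, 0 passed in WT mice, where 4.41% of all genes did. Of 10 genes of haem synthesis, Alas1, its first enzyme, and Tmem14c passed in KO mice at 0.16 and 0.23 (log2), a share close to the 20.8% of all genes, and 0 passed in WT mice. Without KO Tg-SwDI replicate 8 only Tmem14c passed in KO mice (FDR = 0.0679 for Alas1).

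Of 10 tested genes of haem breakdown and scavenging other than Hmox1, 2 were higher in KO mice and 1 in WT mice, near the 20.8% of all genes called in KO mice. Blvrb, a biliverdin reductase, was 1.36-fold higher in KO mice (FDR = 0.00172, edgeR), and Slc48a1, a haem transporter, rose by 0.14 on the log2 scale (FDR = 0.00804). Bach1, the haem-sensing repressor of Hmox1, was 1.25-fold higher in WT mice (FDR = 0.0114) and differed by 0.13 on the log2 scale in KO mice (FDR = 0.267). Of 25 tested genes of zinc and copper handling, 6 were higher and 1 was lower in KO mice, beside 12.5% and 8.31% of all genes, and 4 and 1 without KO Tg-SwDI replicate 8. Among them were the zinc importer Slc39a1 (log2 0.46, FDR = 5.06e-06) and the copper chaperone Atox1 (log2 0.38, FDR = 0.00224), and Slc39a1 was the 1 of the list that passed in WT mice (log2 0.24, FDR = 0.0233).

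Among 11 genes of the NRF2 pathway, which includes regulators of Hmox1 and ferritin, 3 were higher in KO and 1 in WT mice, with 20.8% and 4.41% of all genes called. Nfe2l2, which encodes NRF2, rose from 20.8 ± 3.81 to 40.9 ± 0.598 CPM in KO mice (SD, n = 5, FDR = 3.41e-09, edgeR) and from 22.3 ± 2.30 to 34.4 ± 2.09 CPM in WT mice (FDR = 1.21e-05). G6pdx, which supplies NADPH, was the 1 gene of the list that passed between KO and WT Tg-SwDI mice (log2 0.24, FDR = 0.0446, and 0.0723 without KO Tg-SwDI replicate 8), and Prdx1, a peroxiredoxin, rose by 0.25 in KO mice (FDR = 0.00811). Without that mouse Prdx1 also passed in WT mice (FDR = 0.0133), and the interaction of Ireb2 passed (FDR = 0.0216). Of 8 tested genes of lipid peroxide defence and ferroptosis, the arachidonate lipoxygenase Alox5 was the 1 that passed in each genotype, at 1.71 in KO and 0.86 in WT mice (log2), with Slc3a2 as a further one in KO mice without KO Tg-SwDI replicate 8 (FDR = 0.00327). Beside this list, 20.8% of all genes passed in KO and 4.41% in WT mice, so 1 of 8 in KO mice does not exceed the share of all genes.

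The other 3 lists held genes of signalling and of responses to a hormone or to low oxygen, and their part in the metallothionein levels was not tested. Of 6 tested genes of IL-6 and STAT3 signalling, 4 were higher in KO (5 without KO Tg-SwDI replicate 8) and 4 in WT mice, with Osmr, the oncostatin M receptor, at 1.49 and 1.30 and Stat3 at 0.48 and 0.31 (log2). Of 13 genes of the glucocorticoid response, 1 was higher and 2 were lower in KO mice (1 lower without KO Tg-SwDI replicate 8), near the 20.8% of all genes called, and 2 were higher in WT mice, with Plin4, a lipid droplet gene, at 1.26 and 1.73. The 2 lower genes were Nr3c2 (log2 -0.17, FDR = 0.0425, edgeR) and Nr3c1 (log2 -0.19, FDR = 0.0466, and 0.125 without KO Tg-SwDI replicate 8). Of 10 genes of the hypoxia response, 3 were higher and 1 was lower in KO mice and 2 were higher in WT mice (3 without KO Tg-SwDI replicate 8), with Hif1a at 0.42 and 0.31. The shares of all genes, beside these 3 lists, were 12.5% higher and 8.31% lower in KO mice. In WT mice they were 3.94% higher and 0.466% lower. The 1 of 10 hypoxia genes that was lower in KO mice is near the share of all genes. Vegfa was higher in Tg-SwDI WT mice (log2 0.47, FDR = 0.00682, edgeR) and lower in KO Tg-SwDI than in WT Tg-SwDI mice (log2 -0.52, FDR = 0.0145).

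**Figure D4:**
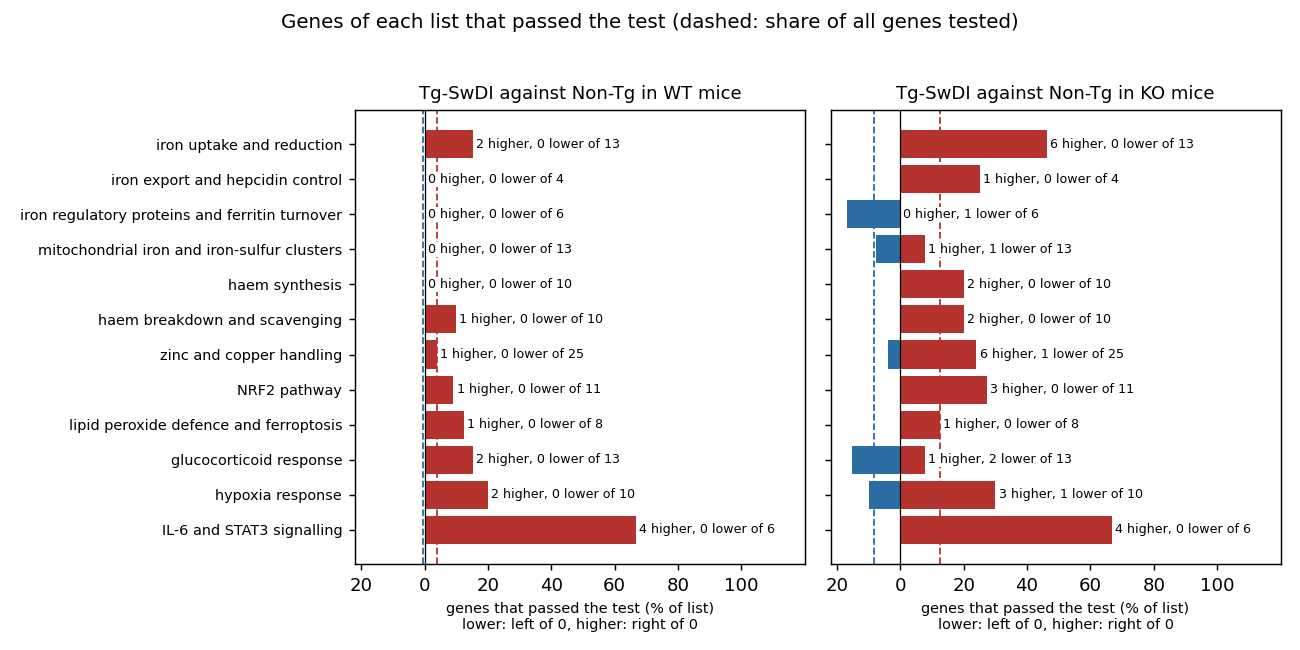
Percent of tested genes in each of the 12 lists that passed the test, higher to the right of 0 and lower to the left, for Tg-SwDI against Non-Tg in WT mice (left) and KO mice (right), with dashed lines at the percent of all genes tested. In WT mice 4 of 6 IL-6 and STAT3 genes were higher, where 3.94% of all genes were, and in KO mice 6 of 13 iron uptake genes were higher, where 12.5% of all genes were.

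Markers of red blood cells did not pass the test. Of 6 listed genes 4 were tested, and edgeR called 0 of them in any comparison, with 0 at an unadjusted p under 0.05. Their summed level averaged 4.71 ± 2.80 CPM without and 7.23 ± 5.86 CPM with the transgene in WT mice, and 6.997 ± 8.86 CPM without and 8.29 ± 5.12 CPM with it in KO mice (SD, n = 5), and the highest of all mice, at 22.8 CPM, was a KO Non-Tg mouse. Hbb-bs, the most abundant, averaged 3.27 CPM over the 20 mice, with an average log2 difference of 0.56 (SE 0.54, FDR = 0.534, edgeR), and no marker was at 0 in every mouse. The mice had been perfused, and blood left in vessels and blood in tissue cannot be told apart.

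Glial markers were higher in Tg-SwDI mice, in the same comparisons as Hmox1 and Mt2. All 11 homeostatic microglia genes were higher in Tg-SwDI mice of both genotypes, and their summed level rose from 345 to 696 CPM in WT and from 326 to 833 CPM in KO mice. All 9 disease-associated microglia genes were higher in both genotypes too, with Trem2 at 3.23 in KO and 2.45 in WT mice (log2). Of 5 reactive astrocyte genes 5 were higher in KO and 4 in WT mice, with Gfap from 357 to 1707 CPM in KO and from 387 to 1200.3 CPM in WT mice. Of 9 general astrocyte genes 3 were higher in each genotype and 7 on the average, 6 in KO and 4 in WT mice without KO Tg-SwDI replicate 8, with Aqp4 at 0.87 in KO and 0.62 in WT mice (log2). Their part in the Mt1 and Mt2 levels was not tested. None of these markers was at 0 in every mouse. Beside these lists, 12.5% of all genes were higher in KO mice, 3.94% in WT mice and 11.3% on the average.

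With the homeostatic microglia score of each mouse in the model, 0 of the 9 genes passed for Tg-SwDI against Non-Tg in KO, in WT or on the average, and of all 16107 genes 18, 16 and 15 passed. That score was at most -0.37 in Non-Tg and at least 0.23 in Tg-SwDI mice, so the groups do not overlap on it and the transgene and the score cannot be told apart in that model. The log2 values of Mt2 in that model were 0.95 (SE 0.57) in KO and 0.68 (SE 0.42) in WT mice, and those of Mt1 were 2.07 (SE 0.59, FDR = 0.118) and 1.31 (SE 0.44, FDR = 0.394), while Hmox1 was at 0.14 (SE 0.41) and -0.01 (SE 0.31). Oligodendrocyte genes, which mark cells rich in ferritin, were higher for 5 of 11 in KO and 1 of 11 in WT mice, with Mbp, the most abundant, at 0.31 (log2, FDR = 0.000582, edgeR) in KO mice. Of 10 general neuron markers, 2 were lower in KO and 0 passed in WT mice (1, lower, without KO Tg-SwDI replicate 8). Of 14 choroid plexus genes 12 were higher in KO and 0 passed in WT mice. Tf and Cp are also made by that tissue, and its part in their levels was not tested further. Of 7 border-associated macrophage, 8 mural cell and 11 endothelial genes, 1 each was higher in KO mice, while in WT mice the endothelial gene Tek was lower (log2 -0.39, FDR = 0.0396) and 0 genes of the other lists passed. Without KO Tg-SwDI replicate 8, 2 endothelial genes passed in KO mice, as did 6 of 14 choroid plexus genes. In either fit 0 of 7 leptomeningeal fibroblast genes passed. Of all genes tested with all mice, 12.5% were higher and 8.31% lower in KO mice, and 3.94% and 0.466% in WT mice. The 1 of 7, 1 of 8 and 1 of 11 genes higher in KO mice are near that share. Without KO Tg-SwDI replicate 8, 1904 of 16224 genes were higher in KO mice. The part of these cell types in the levels of the 9 genes was not tested further.

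Genes most like each of the 9 were found from deviations from the group mean over 20 mice, with Pearson's r as the measure of likeness. Mt3 was nearest to Selenow (r = 0.96), Mrpl52 (0.95) and BC029722 (0.95), and without KO Tg-SwDI replicate 8 it was nearest to Dcakd (0.83), so the first set rested on that mouse. Mt1 was nearest to Rab4a (0.90) and Mt2 to Frk (0.79), and without replicate 8 Mt1 and Mt2 were nearest to each other (0.89, 19 mice). Ftl1 was nearest to Rps9 (0.93), Rplp0 (0.92) and Egln2 (0.91) with all mice and to Frrs1 (0.85) without replicate 8. Fth1 was nearest to Tmem110 (0.88), Asph (0.87) and Hnrnpa0 (0.87), with Mbp first (0.85) once replicate 8 was left out. Among the genes most like Cp were Mgp (0.93) and Slc6a12 (0.92). Slc40a1 was nearest to Gpr183 (0.83) and Cd300lb (0.82), Hmox1 to Cenpb (0.80) and Tfrc to Uhrf1bp1l (0.90), the last of these giving way to Mtrex (0.87) and that of Hmox1 to Phgdh (0.82) without replicate 8. The points share library depth and composition, and the genes were picked as the highest of 16107.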

How the data were processed

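The authors aligned reads of stranded mRNA libraries to mm10 with STAR, counted them on ENSEMBL genes with featureCounts, per the labels and the methods, and deposited raw read counts without normalization. Versions, strand setting and the handling of reads that match several genes are not given in the sources used here. Symbols came from GENCODE M21 (38872 of 39056 identifiers matched).

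Counts were scaled by TMM and filtered by filterByExpr (minimum count 10, total 15), and 16107 genes were fitted with the quasi-likelihood test of edgeR 4.0.16 (limma 3.58.1, R 4.3.3) to 4 group means over all 20 mice, with 16 residual degrees of freedom and Benjamini-Hochberg adjustment over all genes. Log2 CPM used a prior count of 2. DESeq2 1.42.0 was an alternative, and Python 3.11.15 made tables and figures. Totals of 19549622 to 21066868 counts limit genes with few reads. Nothing says that mice of a group came from separate litters, so p-values measure the spread between these mice. Replicate pairs all differed beyond sampling noise. In a simulation of KO against WT in Tg-SwDI (16025 genes), the fit called 87% of genes with a planted log2 change of 1 and 73% with one of 0.5.

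Members and lists were chosen with earlier results of these data known. Named beside the 9 genes were up to 4 genes of lowest p per pathway list and comparison, the most abundant and up to 3 such genes per cell type list, the 3 genes most like each member, near-identical copies and label checks. Promoter windows came from RefSeq, with none used for Slc40a1 and Hmox1. Some genes that these rules name are not reported here.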

Additional observations from a re-analysis of the deposited data

Results flagged for a closer look

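Of 40 groups of 5 mice checked for a mouse far from the others (9 genes and the mitochondrial share in 4 groups), 4 were singled out, and chance gives about 1 in 20. Mt3 in KO Tg-SwDI replicate 8 was at 493 CPM, with the next mouse of the group at 219.8 CPM. The mitochondrial share of the same library was 14.6%, with the next at 8.76%. Ftl1 in KO Non-Tg replicate 2 was at 225 CPM, with the next mouse at 207 CPM. Hmox1 in KO Non-Tg replicate 1 was at 4.64 CPM, with the next at 5.42 CPM, both below every Tg-SwDI mouse.

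None of the 9 genes had a Tg-SwDI difference that differed between miR-34a genotypes by the interaction with all mice, but 4 genes of the cell type lists did (edgeR). They were Trem2 (log2 0.78, FDR = 0.0146), Ctsd (log2 0.67, FDR = 0.0199) and Clec7a (log2 2.14, FDR = 0.0461) of disease-associated microglia and Cd44 (log2 0.74, FDR = 0.0236) of reactive astrocytes, with a larger Tg-SwDI difference in KO mice for each. Without KO Tg-SwDI replicate 8 the interaction passed for 4 homeostatic microglia, 4 disease-associated microglia and 1 reactive astrocyte gene.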

How the results depend on the processing

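Each fit was repeated with 1 choice changed: DESeq2, edgeR's exactTest, RLE scaling, library size alone, other filters (none, a mean CPM of at least 1), the 10 compared mice alone, the replicate block, a choroid plexus or homeostatic microglia score, a GC content and length trend removed, and each mouse left out, and with the choroid plexus score and KO Tg-SwDI replicate 8 left out together. Over the alternatives of the results that were followed, 1113 results kept direction and side of the threshold, 33 passed only there, 30 missed the threshold only there and 44 changed sign. These counts do not cover every gene in every comparison. For KO against WT they hold Hmox1, Ftl1, Mt1, Mt3 and Slc40a1 in Tg-SwDI and Fth1 and Tfrc in Non-Tg mice.

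Of the 9 genes, 0 passed for KO against WT in Tg-SwDI, but 1 did with DESeq2, exactTest, a mean CPM of at least 1 or the choroid plexus score (Hmox1 in each), 1 with the microglia score (Slc40a1), and 2 with the choroid plexus score without KO Tg-SwDI replicate 8, an alternative chosen after seeing the data. Leaving out single mice gave 0 to 2. Of all genes tested, 320 passed in that comparison, and 733, 465, 391, 561, 890 and 607 in those alternatives as listed, so the share of all genes rose there too. For Tg-SwDI in WT, 2 became 4 (with Ftl1 and Mt1) with DESeq2, exactTest, the 10 mice alone, the trend removed or the choroid plexus score without replicate 8, and ranged from 2 to 4 with single mice left out. Of all genes, 710 became 838, 751, 946, 700 and 936. The interaction ranged from 0 to 1. The cause was not tested.

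With the microglia score, which does not overlap between Non-Tg and Tg-SwDI mice, 0 of 9 passed for Tg-SwDI in KO, in WT and on the average, and these log2 values changed sign: Fth1 -0.51 in KO, -0.43 in WT and -0.47 on the average, Ftl1 -0.52, -0.46 and -0.49, Cp -0.59, -0.56 and -0.57, Tfrc -0.50 and Hmox1 -0.009 in WT, Ftl1 -0.0897 for KO against WT in Tg-SwDI and -0.0628 for the interaction.

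Among the results in those counts, the other changes of sign concerned genes that did not pass. Slc40a1 was at 0.0413 in KO, 0.0419 in WT and 0.0416 on the average under the replicate block, at 0.0592 in KO and 0.012 on the average with the trend removed, and in WT at 0.0047 with the choroid plexus score and 0.007 with a mean CPM of at least 1. Cp was at -0.089, -0.0221 and -0.0555 with the choroid plexus score, and at -0.0473, -0.0309 and -0.0391 without replicate 8 as well. Tfrc was at 0.0182 and 0.035 on the average under the same fits and at -0.0191 in WT with the trend removed. With single mice left out, Slc40a1 ranged from -0.134 to 0.0414 in KO, -0.0683 to 0.0707 in WT and -0.0674 to 0.0229 on the average, Tfrc from -0.0121 to 0.0723 and Cp from -0.0431 to 0.284 in WT. Outside those counts, KO against WT in Tg-SwDI mice also changed sign without KO Tg-SwDI replicate 8. Fth1 went from -0.0199 to 0.0459 and Tfrc from -0.0672 to 0.0207, and neither passed.

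Mt3 in KO mice missed the threshold with no filter (FDR = 0.0838), RLE scaling (0.0501), the 10 mice alone (0.182), the choroid plexus score (0.382) and the trend removed (0.0644). Replicate numbers are shared between groups, and of 16 same-numbered pairs 2 had correlated deviations over 0.1 (median -0.04). Such correlations cannot exclude shared litters or processing. The paper describes its Tg-SwDI mice of the 2 miR-34a genotypes as littermates, and the labels name no litter. Under the replicate block 5 genes passed in KO (Mt3 not, FDR = 0.120), 3 in WT (Mt1 in addition), 5 on the average and 0 in the other comparisons. Of all genes, 8 passed for KO against WT in Tg-SwDI under the block, where 320 did without it. Depth limits Hmox1 and Slc40a1 most.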
